A study of Mus musculus with 100 samples.

Results

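Regions far from any annotated gene start were examined in 15 tables of ChIP-seq tag counts from mouse bone marrow-derived macrophages (BMDMs) and bone marrow cells. A region was taken as remote when its row was annotated Intergenic and lay more than 100 kb from the nearest transcription start site (TSS), both as listed in the tables. This held for 32620 of the 610301 regions (5.34%), and the 215692 regions 2 to 20 kb from a TSS, called near below, were the class of comparison. The same place can be listed in several tables, and remote regions whose centres lay within 500 bp of each other formed 6383 loci. Distances are to the nearest gene in the tables, and the name of that gene marks a position and not a target.

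The study asked how signaling through the receptor TLR4 changes what the corepressor NCoR and its partner HDAC3 do on chromatin. All samples carry the strain name C57Bl6. Wild type BMDMs received vehicle (Veh) or Kdo2-lipid A (KLA), a TLR4 agonist, and were profiled for NCoR, HDAC3, p65, Fosl2, PU.1, PGC1b, ERK1 and p300. Acetylation of histone H3 at lysine 27 (H3K27ac) was profiled with Veh and KLA in 4 genotypes and, in Wild type BMDMs, with DMSO and Veh, DMSO and KLA, and the HDAC3 inhibitor RGFP966 and KLA. The genotypes were NCoR flox/flox, which carries the label WT in its tables and is the control of NCoR flox/flox, LysMCre (NKO), and PGC1b flox/flox (flox), the control of PGC1b flox/flox, LysMCre (Cre). All knockout and control groups thus share the floxed allele and differ in the LysMCre transgene, which is active in myeloid cells, and the extent of deletion was not tested here. KLA was given for 6 h where a time is named, as it is outside the ERK inhibitor experiments. Vehicle is named as 6 h for NCoR, HDAC3, p65, Fosl2, PU.1 and DMSO with H3K27ac, as 0 h of KLA for p300, and without a time for the others. Further groups were PGC1b in DMSO and Veh, DMSO and KLA, and an ERK inhibitor with KLA (ERKi), NCoR in ERKi and KLA, and ERK1 and p300 in Wild type bone marrow cells at Day0 and Day4 of culture toward osteoclasts. Each group had 2 libraries, and nothing in the labels says that replicates came from separate animals, so that the tests measure the spread between these libraries, which may be technical.

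Most regulatory elements of macrophages lie outside promoters, and many are read by the factor PU.1, which opens chromatin in the myeloid lineage. Signals from TLR4 bring NF-kB, whose subunit is p65, and AP-1 factors such as Fosl2 to enhancers, where the acetyltransferase p300 deposits H3K27ac. NCoR carries HDAC3, which removes this mark, and genes with large intergenic flanks, among them many developmental transcription factors, often have enhancers at long range.

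The sequences of 6 remote regions are shown because the results below turn on them: the region with the strongest gain of p65, the pair with the strongest gain and loss of NCoR and the pair for PU.1, and a locus present in all 15 tables. Each is the central 200 bases on the plus strand of mm10 (GRCm38). Capitals mark matches to 6 motifs searched on both strands, namely GAGGAAGT for PU.1, TGANTCA for AP-1, GGANTTTCC for NF-kB, TTGCNNAA for C/EBP, GAAANNGAA for IRF and AGGGGGC for CTCF. Neighbouring capitals in the Rftn1 region come from overlapping IRF matches, and a region without capitals holds none of these letters in this window.
p65 gained, nearest Il6, chr5:29880213-29880412: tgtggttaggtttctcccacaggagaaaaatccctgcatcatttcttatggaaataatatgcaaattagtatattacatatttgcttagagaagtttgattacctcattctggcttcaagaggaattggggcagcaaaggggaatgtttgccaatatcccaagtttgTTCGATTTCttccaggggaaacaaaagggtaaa
NCoR gained, nearest Tmem2, chr19:21948090-21948289: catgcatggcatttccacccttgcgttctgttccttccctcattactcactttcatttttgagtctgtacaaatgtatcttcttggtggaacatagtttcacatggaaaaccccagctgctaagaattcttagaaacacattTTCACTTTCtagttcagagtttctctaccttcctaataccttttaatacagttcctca
NCoR lost, nearest Col4a2, chr8:11179961-11180160: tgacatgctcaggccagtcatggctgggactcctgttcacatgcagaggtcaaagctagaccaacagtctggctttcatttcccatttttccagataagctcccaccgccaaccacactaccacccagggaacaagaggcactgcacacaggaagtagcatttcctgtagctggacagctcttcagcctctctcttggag
PU.1 gained, nearest Rftn1, chr17:49971117-49971316: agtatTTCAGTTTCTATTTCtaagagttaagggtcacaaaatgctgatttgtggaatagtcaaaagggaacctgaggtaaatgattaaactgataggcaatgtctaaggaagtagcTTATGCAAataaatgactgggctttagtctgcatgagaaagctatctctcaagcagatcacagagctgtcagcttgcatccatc
PU.1 lost, nearest Mir21c, chr8:128035746-128035945: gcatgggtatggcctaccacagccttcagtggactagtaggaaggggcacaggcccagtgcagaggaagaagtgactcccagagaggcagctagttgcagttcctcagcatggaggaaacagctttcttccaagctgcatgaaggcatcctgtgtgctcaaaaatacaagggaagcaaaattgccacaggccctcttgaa
All tables, nearest Hif1a, chr12:73779354-73779553: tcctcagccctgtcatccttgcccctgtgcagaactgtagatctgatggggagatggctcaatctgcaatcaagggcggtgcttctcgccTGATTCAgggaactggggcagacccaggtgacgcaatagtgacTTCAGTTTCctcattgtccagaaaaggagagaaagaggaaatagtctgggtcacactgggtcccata
Of all regions of the p300 table, 23.1% held the AP-1 letters in such a window, 17.7% C/EBP, 10.96% IRF, 10.2% PU.1, 2.87% CTCF and 2.45% NF-kB. The IRF letters occurred in 4 of the 6 sequences shown, those nearest Il6, Tmem2, Rftn1 and Hif1a, and the regions that lost NCoR or PU.1 held no match. These 6 were picked for display, so that their share with IRF letters does not describe remote regions.

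The shallowest library held 4.30 M tags (Fosl2, KLA, replicate 1) and the deepest 21.5 M. Intervals given below cover counting error only, since sequenced reads are not independent molecules. The cell label was checked at promoters. All 6 macrophage markers examined (Adgre1, Cd14, Cd68, Csf1r, Itgam and Spi1) had H3K27ac regions in the tables of the RGFP966 and Pgc1b experiments and 4 of 6 in the NKO table, and none of 3 T cell and none of 3 B cell markers had any. In the PU.1 and p300 tables a single B cell marker of 3 had a region. Of 5 osteoclast markers 1 (RGFP966 and Pgc1b) or 2 (NKO) had H3K27ac regions, and 3 of 5 had regions in the p300 and in the ERK1 table of Day0 and Day4, where all 6 macrophage markers did. In the PU.1 and p300 tables of BMDMs 4 of 5 osteoclast markers had regions, so that these markers do not separate the cell systems. The HDAC3 library with KLA, replicate 2, held 5.69 M tags, of which 46.5% lay in regions, against 31.2% in replicate 1. In the NCoR libraries with ERKi 15.8% and 14.97% of tags lay in regions, against 34.2% and 33.3% with KLA alone, and these 2 libraries stood apart from the other NCoR libraries. The ERK1 library titled Day4 replicate 2 is described in the labels as another replicate with another date. The names of the other 3 ERK1 libraries at Day0 and Day4 hold NCoRWT, and this one does not, while the genotype label of all is Wild type. The names of the NCoR flox/flox controls hold NWT instead, and the labels do not say what NCoRWT stands for.

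Remote regions made up 4.29% to 6.61% of the regions of the factor tables. The share was 6.61% for p300 (4496 of 67998), 5.95% for Fosl2, 5.85% for p65, 5.43% for NCoR, 5.37% for HDAC3, 5.36% for PGC1b, 4.57% for PU.1 (2317 of 50690) and 4.49% for ERK1 (1254 of 27931). In the Day4 tables it was 6.11% for p300 and 4.29% for ERK1, so that p300 had the larger remote share and ERK1 the smaller one in both cell systems. H3K27ac regions, which were open chromatin sites and not peaks of the mark, were remote in 3.66% (909 of 24867, WT and NKO) and 5.23% (1557 of 29767, the same sites in the RGFP966 and the Pgc1b experiment). The median distance was 153 to 167 kb. With a limit of 50 kb the share over all tables would be 11.3%, and with 200 kb 1.80%. The values at the limit itself were unlike each other: the NCoR region just inside, at 100008 bp from Itgb8, held 5.97 and 5.88 tags per 10 M with Veh and 34.0 and 33.2 with KLA, and the region just outside, at 99969 bp from Mir680-3, held 194 and 237 with Veh and 168 and 166 with KLA.

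The annotation used in the tables is sparse, and a fuller one put starts much closer. Against GENCODE M21 annotation of GRCm38, 13.3% to 15.4% of the remote regions of a table lay over 100 kb from every start, and the median distance to a start was 27.2 to 32.4 kb. From 12.7% to 17.3% lay inside a gene annotated as a long noncoding RNA, and 6.54% to 10.7% lay within 2 kb of a start. Between 19.6% and 27.1% of remote regions overlapped a repeat in the listed annotation, most often a long terminal repeat element.

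Factors shared most remote places. Within 500 bp of a remote NCoR region, an HDAC3 region was found for 80.4% and a p300 region for 87.1% (near regions: 80.5% and 81.9%). Within 500 bp of a remote HDAC3 region, an NCoR region was found for 91.5%. The kinase ERK1 had a p300 region beside it at 94.98% of its remote regions and at 86.3% of its near ones. By contrast, 21.2% of remote p300 regions, and 13.9% of near ones, had none of the other 7 factors within this distance. Of the 6383 loci, 30.3% were present in a single table, 10.5% held all 8 factors, and 184 were present in all 15 tables. Remote regions lay farther apart than near ones in every table. The median distance to the next region of the same table was 2.83 kb for remote and 2.22 kb for near p300 regions, and 17.6 kb against 6.95 kb for H3K27ac in the RGFP966 experiment.

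Signal at remote regions was lower than at near ones in nearly every library, and by more for H3K27ac than for the factors. Values are tags per region and 10 M reads of the library (tags per 10 M), here as the median over regions in replicates 1 and 2. PU.1 with Veh had medians of 68.3 and 70.3 at remote and 76.0 and 76.6 at near regions, and with KLA 55.0 and 54.8 against 64.8 and 65.6. For p65 with Veh the medians were 9.63 and 11.2 against 15.8 and 17.7, and with KLA 38.1 and 40.4 against 44.7 and 48.6. The gap thus narrowed with KLA for p65, as it did for p300, where it was 13.8 and 12.5 against 20.7 and 20.4 with Veh and 29.7 and 30.3 against 33.3 and 33.0 with KLA. At Day4 the gap was absent for p300, with 38.1 and 38.6 at remote and 39.1 and 38.6 at near regions, against 8.79 and 6.39 and 11.4 and 8.52 at Day0. The lists hold peaks found in either group, however, and remote regions were more often peaks in the high group only. Peaks with KLA only made up 76.6% of remote and 68.2% of near regions for p65, and 53.4% and 43.8% for p300. Peaks at Day4 only made up 94.6% and 88.4% for p300. These gaps thus describe the listed regions. H3K27ac with DMSO and Veh had medians of 25.7 and 25.3 at remote and 48.2 and 46.2 at near regions.

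**Figure D1:**
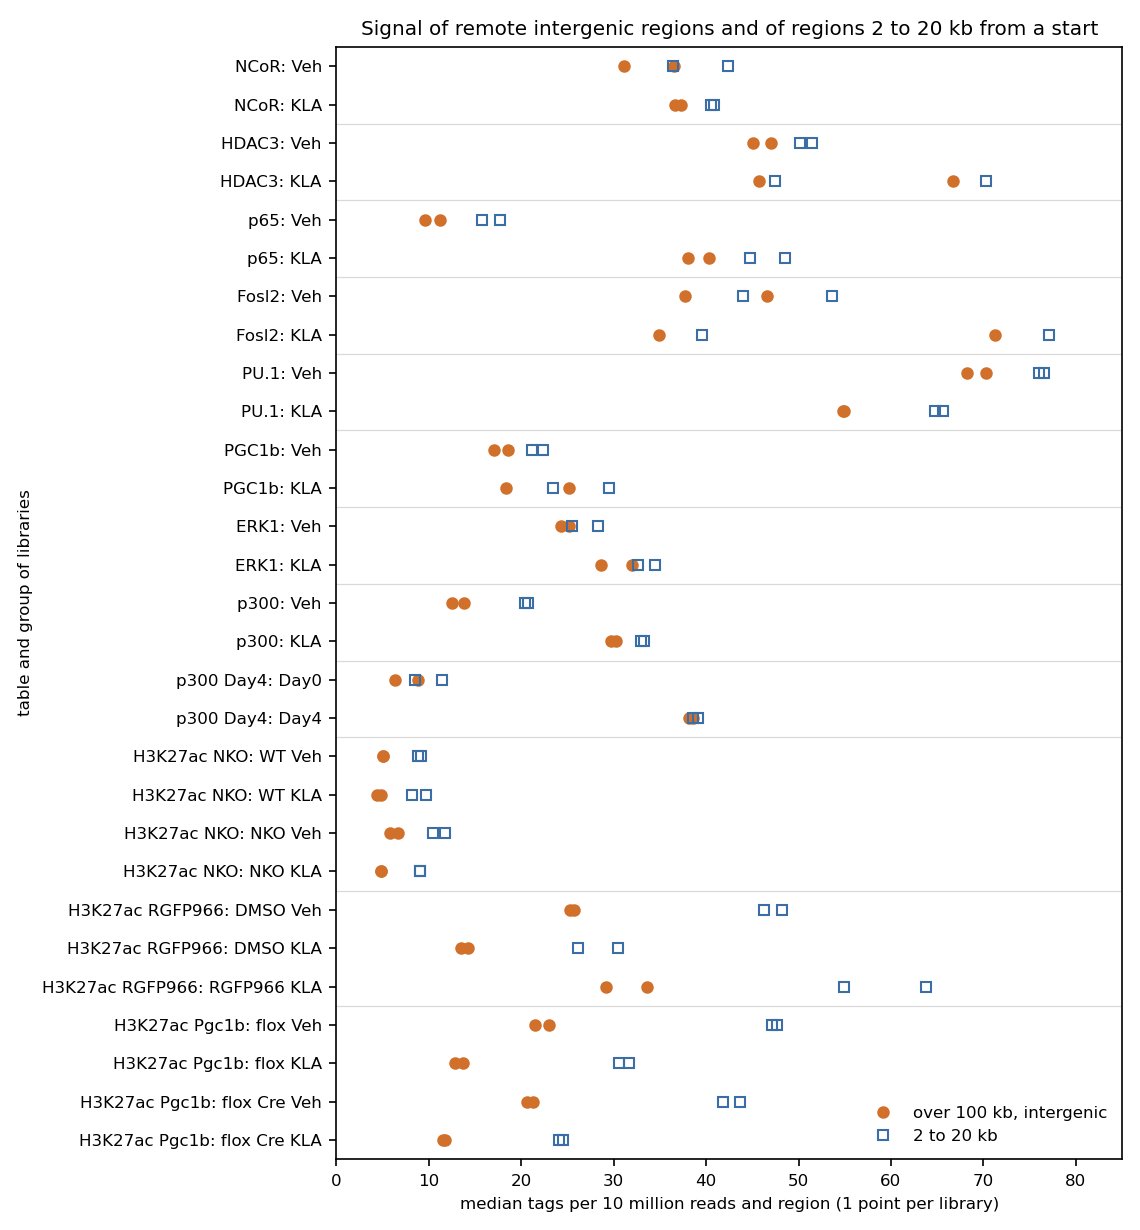
Median tags per 10 M reads and region (horizontal axis) for each library of each table and group (vertical axis), with filled circles for remote intergenic regions and open squares for regions 2 to 20 kb from a TSS. Circles lie left of squares in most groups, the largest gaps being those of the H3K27ac tables of the RGFP966 and Pgc1b experiments, and circles and squares coincide for p300 at Day4.

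The strongest remote regions ranked among the strongest of each table. The top remote region of NCoR lay 131 kb from Prdm1 (chr10:44589434-44589647), the gene of a transcriptional repressor of plasma cells and macrophages, inside the noncoding gene Gm48061. It ranked 4 of 55045 and held 618 and 694 tags per 10 M with Veh and 781 and 658 with KLA. The groups overlapped, and it was not called (edgeR adjusted p = 0.524). It was also the top remote region of HDAC3, with 564 and 489 tags with Veh and 536 and 871 with KLA. For p65 the top region lay 478 kb from the zinc finger gene Zfat (chr15:67780908-67781224) and ranked 6 of 52629. It rose from 131 and 99.7 to 763 and 821 tags, a change of 2.77 ± 0.20 (SE) on the log2 scale (adjusted p = 1.54e-06). For PU.1 the top remote region lay near Dleu2, a noncoding gene, and held 550 and 564 tags with Veh and 397 and 416 with KLA, so that the 2 KLA libraries lay below both Veh libraries by totals (log2 −0.45, under 2-fold and no call), but the difference was −0.04 under the scaling by the trimmed mean of M-values (TMM; adjusted p = 0.637).

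The calls given below were made with edgeR's quasi-likelihood test, each library being scaled by its total. They require an adjusted p (Benjamini-Hochberg, over all regions tested) under 0.05 and a change of more than 2-fold. All remote regions of the factor tables passed the filter on low counts. Each factor table lists peaks found in either group, however, so that a region could be listed through the group where its signal is high, and the counts describe the listed regions. Remote regions that were peaks with KLA only or Veh only made up 46.3% and 10.5% for NCoR, 50.7% and 7.22% for HDAC3, 53.4% and 12.8% for p300, 2.16% and 67.4% for PU.1, 19.1% and 51.7% for Fosl2, 26.2% and 36.7% for PGC1b and 47.7% and 25.7% for ERK1. Percentages of all regions tested, of any annotation, are given beside those of remote regions as the background. Scaling by TMM is given where it moved the split between higher and lower by over 10 percentage points, with the shift it gave to the median log2 fold change of all regions. Counts without a library are given where they differ by over 1.5 times.

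With KLA, p65 rose at most remote regions. Of 3081 regions, 2213 (71.8%) were called higher and 88 (2.86%) lower, against a background of 57% and 5.43% and, at near regions, 60.7% and 4.17%. The median log2 fold change was 2.18 at remote, 1.57 at near and 1.46 at all regions. Under TMM, which moved the median of all regions by −1.22, 1213 were called higher and 307 lower, and the median of remote regions stayed 0.73 above that of all regions (0.72 by totals). Without KLA replicate 1 or 2 the count of calls was 1228 or 1128 in place of 2301. In the authors' peak sets 76.6% of remote p65 regions were peaks with KLA only, against 68.2% of near ones. The region with the lowest p among those that fell lay 105 kb from Trim33, a ubiquitin ligase gene, and held 18.4 and 14.9 tags per 10 M with Veh and 0 with KLA in both libraries, a fall of at least 16.5-fold (floor of 3 tags over the group, adjusted p = 0.000383).

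The acetyltransferase p300 showed the same order. Of 4496 remote regions, 2463 (54.8%) were called higher with KLA and 458 (10.2%) lower, against backgrounds of 42.1% and 12.9% and near shares of 41.9% and 13.2%. The median log2 fold change was 1.36 at remote and 0.67 at near regions. Under TMM (shift −0.52) 2019 were higher and 764 lower. The region that fell with the lowest p lay 242 kb from the microRNA gene Mir21c (chr8:128035792-128036025). There p300 went from 106 and 112 tags per 10 M to 4.60 and 3.24, a 27.1-fold fall (log2 −4.76 ± 0.34, adjusted p = 9.01e-09).

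At that same place PU.1 also fell, from 228 and 235 tags per 10 M with Veh to 32.1 and 30.0 with KLA, 7.44-fold (log2 −2.90 ± 0.14, adjusted p = 7.32e-42). This was the PU.1 region that fell with the lowest p, and its sequence, shown above, holds no match to the 6 motifs. In a list of which 67.4% were peaks with Veh only, 678 of 2317 remote PU.1 regions (29.3%) were called lower and 117 (5.05%) higher, against backgrounds of 21.7% and 4.53% and near shares of 20.8% and 5.00%. Under TMM (shift 0.42) the split was 370 lower and 225 higher. The PU.1 region that rose with the lowest p lay 219 kb from Rftn1, the gene of a lipid raft protein, in an LTR element of the ERVK family. It held 13.4 and 13.7 tags with Veh and 168 and 166 with KLA, a 12.3-fold rise (log2 3.62 ± 0.19, adjusted p = 1.6e-39), and its sequence held 2 overlapping IRF matches and a C/EBP match.

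The corepressor NCoR moved both ways. Of 2987 remote regions, 857 (28.7%) were called higher with KLA and 508 (17.0%) lower, against backgrounds of 23.4% and 16.7% and near shares of 24.5% and 17.6%. Without KLA replicate 1 or 2 the calls fell from 1365 to 588 or 594. The gain with the lowest p was 169.8 kb from Tmem2, a cell surface hyaluronidase gene, in the noncoding gene AC129205.1, where NCoR went from 14.3 and 14.1 tags per 10 M to 296 and 315 (21.3-fold, log2 4.41 ± 0.26, adjusted p = 2.34e-05). The loss with the lowest p was 133 kb from the collagen gene Col4a2, with 323 and 398 tags with Veh and 21.1 and 18.0 with KLA (18.4-fold lower, log2 −4.20 ± 0.24, adjusted p = 2.34e-05). In both cases the Veh and KLA libraries were far apart and the replicates close.

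For HDAC3, the deacetylase carried by NCoR, 856 of 2605 remote regions (32.9%) were called higher and 329 (12.6%) lower, against backgrounds of 27.5% and 11.3%. Near shares were 29.3% and 11.9%. Without Veh replicate 1 or 2 the calls fell from 1185 to 550 or 537. The median log2 fold change was 0.42 at remote, 0.30 at near and 0.27 at all regions, and TMM shifted the last by −0.28. The lowest p among HDAC3 losses was near Zfp438, a zinc finger gene, where it went from 180 and 164 to 8.21 and 8.78 tags per 10 M (log2 −4.34 ± 0.47, adjusted p = 2.89e-18).

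The AP-1 subunit Fosl2 had fewer calls than these factors, and its 2 libraries with KLA differed more from each other (r = 0.783 over log2 tags of regions) than those with Veh (r = 0.858). Of 1861 remote regions 258 (13.9%) were called higher with KLA and 73 (3.92%) lower, against backgrounds of 11.4% and 4.19% and near shares of 11.4% and 4.28%. Without Veh replicate 1 or 2 no remote region was called, without KLA replicate 1 there were 723 calls and without KLA replicate 2 there were 844. The loss with the lowest p lay 284 kb from Stxbp5, a gene of vesicle traffic, in the noncoding gene Gm28905, with 39.5 and 51.4 tags per 10 M with Veh and 0 in both KLA libraries, at least 19.8-fold lower (adjusted p = 0.000263, called under 6 of 8 settings). For the coactivator PGC1b 477 of 2447 (19.5%) were called higher and 223 (9.11%) lower, against backgrounds of 16.4% and 6.35% and near shares of 17.0% and 5.57%, and without Veh replicate 1 or 2 the calls fell from 700 to 324 or 313. The loss with the lowest p lay 178 kb from the kinase gene Mylk4, with 53.5 and 64.6 tags with Veh and 0 and 4.58 with KLA (log2 −4.32 ± 0.58, adjusted p = 4.85e-05). For the kinase ERK1 146 of 1254 (11.6%) were called higher and 44 (3.51%) lower, against backgrounds of 10.3% and 2.53% and near shares of 11.7% and 2.50%. Under TMM (shift −0.20) these were 106 and 71, and without KLA replicate 1 or 2 the ERK1 calls fell to 54 or 61. The lowest p among ERK1 losses was near Dleu2 (chr14:61971497-61971798), with 88.1 and 55.5 tags per 10 M with Veh and 6.15 and 4.08 with KLA (log2 −3.75 ± 0.61, adjusted p = 0.00746).

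In several tables the change with KLA differed by distance from the TSS, though for PU.1 and H3K27ac not further beyond 200 kb. For p65 the median log2 fold change was 0.15 within 2 kb, 1.57 at 2 to 20 kb, 1.90 at intergenic regions 20 to 100 kb away, 2.13 at 100 to 200 kb and 2.32 over 200 kb, and the share called higher went from 29.2% to 60.7%, 67.8%, 71.1% and 73.3%. For p300 the medians in the same order were −0.26, 0.67, 1.08, 1.28 and 1.51. PU.1 moved the other way, with −0.36, −0.39, −0.45, −0.56 and −0.54. For H3K27ac, KLA against Veh in DMSO gave −0.17, −0.63, −0.71, −0.88 and −0.83. The sign of p300 at promoters was therefore opposite to that at remote regions, and these medians describe regions, which are not independent replicates. They also describe listed peaks, and the lists differ by class. Peaks with KLA only made up 68.2% of near and 76.6% of remote regions for p65, and 43.8% and 53.4% for p300. Peaks with Veh only made up 60.1% and 67.4% for PU.1. These shares were not examined within 2 kb, and their part in the order of the classes was not tested. TMM shifts all classes of a comparison alike, so that the order of the classes does not depend on it.

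**Figure D2:**
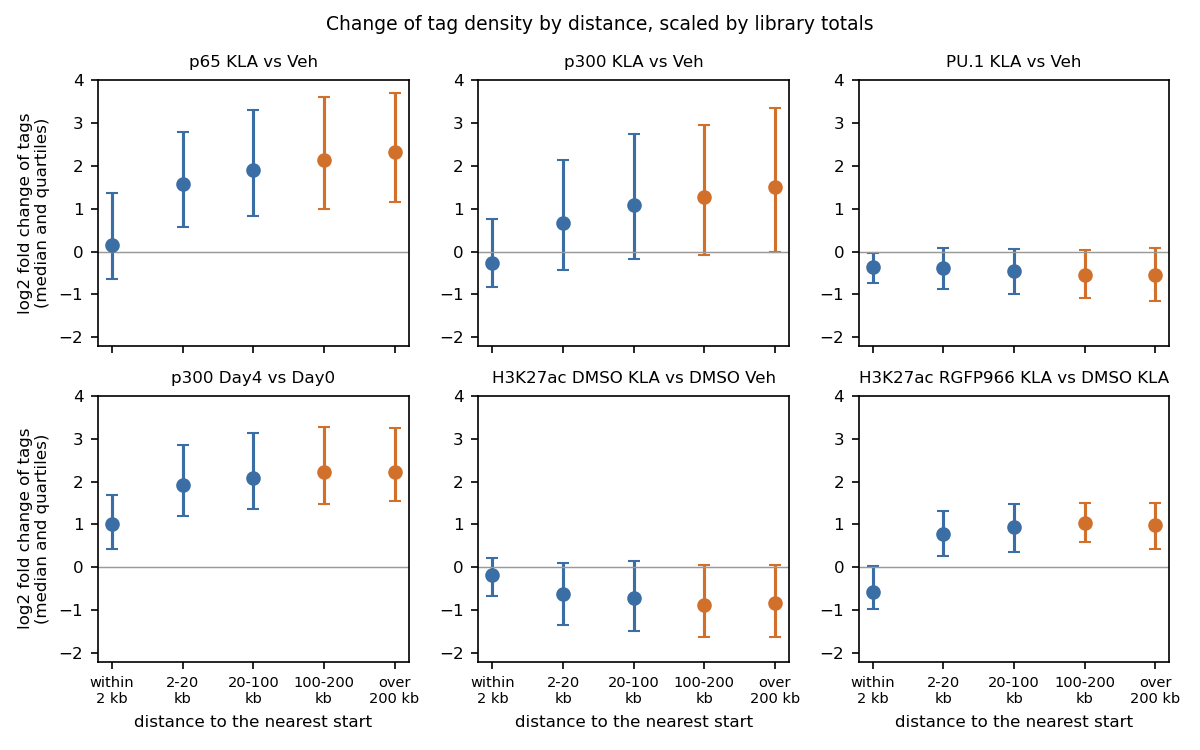
Log2 fold change of tags (vertical axis; points are medians and bars quartiles over the regions tested) by distance to the nearest TSS (horizontal axis), 1 panel per comparison, libraries scaled by totals. For p65 and p300 the points rise from the class within 2 kb to the class over 200 kb, and for PU.1 and H3K27ac with DMSO and KLA the remote classes lie lower than the promoter class.

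To ask whether remote regions as a class changed relative to near ones, the tags summed over remote regions were divided by those summed over near regions in each library. The comparison used the exact two-sided permutation test on 2 against 2 libraries, which cannot give a p below 0.333, so that no such difference could pass 0.05 in this design. The log2 ratio for p65 was −3.19 in both Veh libraries and −2.76 and −2.78 with KLA, a difference of 0.42 or 1.34-fold (exact p = 0.333). For p300 it was −2.74 and −2.82 with Veh and −2.54 and −2.49 with KLA (difference 0.27). For PU.1 it was −3.23 and −3.22 with Veh and −3.33 and −3.34 with KLA (difference −0.11). In these 3 cases the groups did not overlap, and the common SD of replicates over 25 comparisons was 0.0351. The sums run over listed peaks, however, and the lists differ. Peaks with KLA only made up 76.6% of remote and 68.2% of near regions for p65, and 53.4% and 43.8% for p300. Peaks with Veh only made up 67.4% and 60.1% for PU.1. These ratios thus describe the listed regions. The differences were 0.10 for Fosl2, 0.05 for NCoR, 0.02 for HDAC3, 0.00 for PGC1b and −0.08 for ERK1. HDAC3 and PGC1b libraries with KLA overlapped those with Veh.

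The same region, 133 kb from Il6, the gene of an inflammatory cytokine, was the gain with the lowest p for p65, HDAC3, Fosl2, PGC1b and p300. It lies at chr5:29880200-29880425 in the p65 table, outside any GENCODE gene, and its sequence carries an IRF match on the minus strand. For p65 it held 1.75 and 0.932 tags per 10 M with Veh and 486 and 482 with KLA, a ratio of 357 (95% interval 122 to 1735, from pooled tags; adjusted p = 6.4e-07). For p300 it held 0.627 and 0.657 with Veh and 381 and 422 with KLA, a ratio of 625 (173 to 5163; adjusted p = 3.29e-11). For NCoR it held 0 with Veh and 161 and 139 with KLA, at least 83.9-fold (adjusted p = 3.31e-05). The corepressor and the coactivators thus went from near 0 to high values at one place. HDAC3 had 1.45 and 0 tags with Veh and 162 and 186 with KLA (ratio 268, 73.6 to 2220; adjusted p = 1.49e-32). Fosl2 had 0 in both Veh libraries and 426 and 729 with KLA, at least 348-fold (adjusted p = 4.98e-14, called under 6 of 8 settings). PGC1b had 0.588 and 0 with Veh and 114 and 60.1 with KLA (ratio 302, 53.7 to 11997; adjusted p = 1.68e-06). ERK1 had 4.72 and 0 with Veh and 51.6 and 58.5 with KLA, and its ratio of 27.5 (9.08 to 136) was the lowest of the 7 factors. No PU.1 region and no H3K27ac region was listed at this place. Sites open only with KLA may be missing from the H3K27ac lists, so that the mark there is not known.

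**Figure D3:**
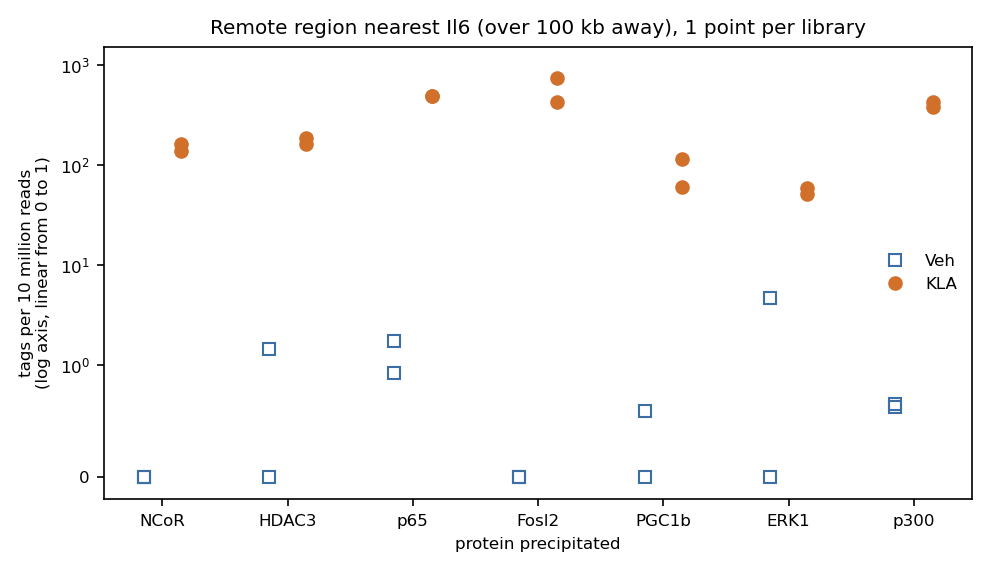
Tags per 10 M reads (vertical axis, logarithmic above 1 and linear from 0 to 1) at the remote region nearest Il6 for each protein precipitated (horizontal axis), with open squares for the 2 Veh libraries and filled circles for the 2 KLA libraries. Every Veh library lies between 0 and 4.72 and every KLA library between 51.6 and 729.

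A second region of the same interval carried the lowest p among the ERK1 gains. It lies nearest Gm5129, 125.7 kb away, at chr5:29861494-29861758, and ERK1 there rose from 11.01 and 12.7 to 117 and 118 tags per 10 M (9.72-fold, log2 3.28 ± 0.43, adjusted p = 0.00447). Of 30 inflammatory genes listed for this work, only Il6 (9 loci) and Il12b (2 loci), the gene of an interleukin subunit, were the nearest gene of any remote region. For p65 6 of 6 such regions were called higher (median log2 fold change 8.17), for p300 8 of 9 (4.43), for NCoR 2 of 2 and for HDAC3 2 of 2, and none fell. The counts for p65, NCoR and HDAC3 rest on Il6 alone, and 2 of the 9 p300 regions lay nearest Il12b. They include the Il6 region described above and are to be read against the backgrounds of 57%, 42.1%, 23.4% and 27.5% given above.

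Among the loci present in all 15 tables, those with the most p300 tags with KLA lay nearest Zfat, Prdm1, Hif1a, Klf7 and again Prdm1. Most factors were already present there with Veh. At the Hif1a locus, 122 kb from the gene of a hypoxia-response factor, p65 rose from 66.5 and 91.4 to 359.96 and 357 tags per 10 M (adjusted p = 1.28e-05) and p300 from 144 and 120.2 to 426 and 459 (adjusted p = 4.99e-08). NCoR held 232 and 281 there with Veh and 245 and 219 with KLA, groups that overlap, and PU.1 229.6 and 261 with Veh and 224 and 199 with KLA. At the Zfat locus H3K27ac with DMSO held 376 and 396 with Veh and 627 and 587 with KLA, and with RGFP966 and KLA 405 and 362. In the Pgc1b experiment the Zfat locus held 283 and 312 (flox, Veh), 517 and 509 (flox, KLA), 295 and 332 (Cre, Veh) and 358 and 343 (Cre, KLA), so that the Cre libraries with KLA lay near the Veh libraries. The difference of the 2 KLA responses was −0.63 ± 0.12 on the log2 scale (edgeR adjusted p = 6.99e-06), under the 2-fold limit for a call.

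The inhibitor of ERK was used to ask whether NCoR and PGC1b on chromatin depend on this kinase, and both comparisons share their KLA libraries with the KLA comparisons. The names of the 2 NCoR libraries with ERKi carry another date than those of the NCoR libraries with KLA and Veh, so that inhibitor and date cannot be told apart for NCoR, whereas all PGC1b libraries of this experiment carry 1 date. Unlike the PGC1b controls, those of NCoR carry no DMSO label, so that solvent and inhibitor cannot be told apart there either. For NCoR, 1695 of 3103 remote regions (54.6%) were called lower with ERKi and KLA than with KLA and 21 (0.677%) higher, against backgrounds of 48.6% and 0.634% and near shares of 49.4% and 0.688%. Under TMM (shift 1.16) the counts were 166 lower and 98 higher, the 2 scalings thus differing on most calls, in a comparison whose ERKi libraries had fewer tags in regions. Without KLA replicate 1 or 2 the count of calls was 852 or 878. The region nearest Prdm1 with the most NCoR tags held 840 and 726 tags per 10 M with KLA and 252 and 244 with ERKi and KLA (log2 −1.66, adjusted p = 3.92e-05), and under TMM the difference was −0.49, under 2-fold and no call. The lowest p was near Atp10a, a flippase gene, with 217 and 245 with KLA and 33.8 and 31.0 with ERKi (log2 −2.83 ± 0.23, adjusted p = 2.6e-05), and under TMM the fall there was −1.67 (adjusted p = 0.000882). At the Il6 region NCoR held 161 and 139 with KLA and 52.4 and 64.6 with ERKi (log2 −1.36, adjusted p = 0.00233), but under TMM this was −0.19 (adjusted p = 0.695). The log2 ratio of remote to near NCoR tags was −2.85 and −2.84 with KLA and −2.97 in both libraries with ERKi, a difference of −0.12 that does not depend on scaling (exact p = 0.333). The region called higher with the lowest p, near Nr5a2, a nuclear receptor gene, held 0 with KLA and 14.4 and 9.48 with ERKi, at least 10.7-fold (adjusted p = 0.00672, called under 5 of 8 settings).

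For PGC1b the DMSO libraries had a larger share of higher calls than the first experiment, 91.4% against 68.1% of all calls, with 563 of 2573 remote regions (21.9%) called higher with KLA and 53 (2.06%) lower, against backgrounds of 16.4% and 1.23% and near shares of 16.7% and 1.10%. Under TMM (shift −0.44) these were 330 and 106, and without Veh replicate 1 the total was 305. ERKi changed few PGC1b regions: 5 were called higher and 10 lower against KLA with DMSO (backgrounds 0.108% and 0.178%), and 419 had an unadjusted p under 0.05. Under TMM (shift 0.21) 6 were higher and 6 lower, and without DMSO and KLA replicate 1 none was called, without its replicate 2 there were 3, and without ERKi replicate 1 or 2 there were 1 or 3. A region 209 kb from Klf4, a macrophage transcription factor gene, was both the lowest-p loss with KLA and the lowest-p gain with ERKi. It held 123 and 176 tags per 10 M with DMSO and Veh, 9.87 and 14.9 with DMSO and KLA, and 105 and 85.3 with ERKi and KLA. The fall was −3.54 ± 0.46 (adjusted p = 6.76e-06) and the rise 2.89 ± 0.47 (7.43-fold, adjusted p = 0.0114, called under 5 of 8 settings), and both rest on the same 2 KLA libraries. The loss with ERKi of lowest p lay 117 kb from Enpp6, a phosphodiesterase gene, in an LTR element, with 178 and 176 tags with DMSO and KLA and 15.6 and 31.0 with ERKi (log2 −2.89 ± 0.41, adjusted p = 0.00348, called under 6 of 8 settings). At the Il6 region PGC1b held 2.44 and 0 (Veh), 223 and 174 (KLA) and 250.3 and 257 (ERKi and KLA), so that KLA with and without ERKi was not told apart (adjusted p = 0.616).

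In bone marrow cells p300 rose at most remote regions listed at Day4. Of these regions 94.6% were peaks at Day4 only and 0.569% at Day0 only, so that most were listed through the group where the signal is high. Of 1231 regions, 941 (76.4%) were called higher and none lower, against backgrounds of 62.2% and 0.248% and a near share of 66.3% higher, and 999 had an unadjusted p under 0.05. The median log2 fold change was 2.23 at remote, 1.91 at near and 1.84 at all regions. TMM shifted the last by −1.61 and left 154 higher and 8 lower, and without Day4 replicate 1 or 2 there were 244 or 235 calls by totals. The p300 libraries of Day0 and Day4 held 4.70 to 11.4 M tags. Those of Day0 had 3.08% and 3.16% of their tags in regions, against 9.61% and 9.53% at Day4. The lowest p was near Gm4668, where p300 held 0 at Day0 and 163 and 142 tags per 10 M at Day4, at least 82.2-fold (adjusted p = 5.02e-05). The strongest remote region, 107 kb from Dtnbp1, went from 92.3 and 85.2 to 393 and 480 (log2 2.29, adjusted p = 0.000226), but by 0.67 (adjusted p = 0.163) under TMM, where the call was lost. The log2 ratio of remote to near p300 tags was −2.86 and −2.92 at Day0 and −2.49 and −2.48 at Day4, a difference of 0.40 or 1.32-fold (exact p = 0.333). This ratio does not depend on scaling, but it runs over the listed regions. Peaks at Day4 only made up 94.6% of the remote and 88.4% of the near ones.

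For ERK1 at Day4 only 14 of 642 remote regions (2.18%) were called higher and none lower, against backgrounds of 2.33% and 0.0267% and a near share of 2.59%, with 213 at an unadjusted p under 0.05. TMM (shift −0.96) left no call, as did leaving out Day4 replicate 1 or 2, while without Day0 replicate 1 or 2 there were 42 or 51 calls. At the region near Dtnbp1 ERK1 held 80.9 in both Day0 libraries and 176 and 108 at Day4 (adjusted p = 0.207). Near Lacc1, whose product regulates macrophage metabolism, it held 0 at Day0 and 24.9 and 26.3 at Day4, at least 18.1-fold (adjusted p = 0.0218, and 0.18 under TMM). The ratio of remote to near ERK1 tags differed by −0.02 (exact p = 0.667), and the groups overlapped.

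H3K27ac at remote regions must be read beside a group of satellite repeats. In the WT and NKO experiment, 22 of 909 remote regions lay in satellites, most of them in a cluster on chromosome 2 nearest Lrrc4c, and they held 19.3% to 27.5% of all remote H3K27ac tags of a library. In the RGFP966 experiment 13 of 1557 regions held 2.81% to 13.4%, and in the Pgc1b experiment the same regions held 4.62% to 15.8%, whereas in the factor tables satellites held at most 0.067%. The strongest remote H3K27ac region of all 3 tables was such a repeat, 1199 kb from Lrrc4c. It held 2202 and 2441 tags per 10 M with DMSO and Veh, 1963 and 3058 with DMSO and KLA, and 1181 and 1782 with RGFP966 and KLA. In the Pgc1b experiment it held 1568 and 1754 (flox, Veh), 1915 and 1902 (flox, KLA), 2119 and 2254 (Cre, Veh) and 3123 and 2891 (Cre, KLA). Ratios of remote to near H3K27ac tags are therefore given with all regions and with satellites left out, a choice made after seeing the data.

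With KLA, H3K27ac fell at many of the remote regions listed. The paper describes the open chromatin sites used for this mark as those found with Veh, so that sites open only with KLA may be missing. Counts of falls and gains with KLA, and of rises with RGFP966 below, therefore describe the listed sites. In DMSO, 1168 of 1557 remote regions passed the filter, and of these 513 (43.9%) were called lower and 84 (7.19%) higher, against backgrounds of 28.1% and 6.73% and near shares of 34.8% and 7.71%. Under TMM (shift 0.42) 344 were lower and 137 higher. The median over remote regions of both replicates fell from 25.7 and 25.3 tags per 10 M with Veh to 14.2 and 13.5 with KLA. The lowest p was 114 kb from Dock1, the gene of an activator of the GTPase Rac, in an LTR element (chr7:134555825-134556825), where the mark went from 330 and 312 to 31.1 and 17.7 (log2 −3.68 ± 0.26, adjusted p = 4.33e-43). At Dock1 the factors fell as well, with log2 changes of −2.74 for NCoR (adjusted p = 0.000143), −2.75 for HDAC3 (2.06e-10), −2.11 for PU.1 (8.72e-30) and −2.43 for p300 (3.27e-07). The gain with the lowest p was 223 kb from Hivep2, a zinc finger gene, with 19.1 and 11.3 tags with Veh and 219.5 and 186 with KLA (log2 3.72 ± 0.29, adjusted p = 1.47e-35). Of tested remote regions with a p65 region within 500 bp, 354 of 871 (40.6%) were called lower and 78 higher, and of those without, 159 of 297 (53.5%) and 6.

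In the presence of KLA, H3K27ac rose with RGFP966 at many remote regions. Against DMSO and KLA, 571 of 1168 tested remote regions (48.9%) were called higher and 10 (0.856%) lower, against backgrounds of 26.9% and 9.53% and near shares of 37.7% and 0.893%. The median log2 fold change was 1.02 at remote, 0.79 at near, 0.39 at all regions and −0.57 within 2 kb of a TSS, where 23.2% were called lower. Under TMM (shift −0.34) 367 remote regions were higher and 25 lower. The comparison shares its DMSO and KLA libraries with the one above, so that the 2 are not independent, and each is given by its own values.

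The region with the lowest p for RGFP966 lay 104 kb from Zfp572, a zinc finger gene (chr15:59202066-59203066). It held 359.6 and 364 tags per 10 M with DMSO and Veh, 39.5 and 26.1 with DMSO and KLA, and 209 and 199 with RGFP966 and KLA. The inhibitor libraries lay between both other groups, and the rise over DMSO and KLA was 6.11-fold (log2 2.61 ± 0.25, adjusted p = 5.34e-23). The region that fell with the lowest p lay 287 kb from Maf, a macrophage transcription factor gene (chr8:115419810-115420810). It held 43.2 and 57.6 with Veh, 422 and 378 with KLA and 172 and 149 with RGFP966, 2.49-fold lower than with KLA alone (log2 −1.32 ± 0.20, adjusted p = 1.5e-09). Both named regions thus moved toward the Veh value. At the Dock1 region RGFP966 gave 89.5 and 68.4, against 31.1 and 17.7 without it (adjusted p = 1.94e-08), and at Hivep2 195 and 178 against 219.5 and 186.

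Regions were also counted by the factors beside them. Of all 1168 tested remote regions 571 were called higher with RGFP966 and 10 lower, against backgrounds of 26.9% and 9.53%. Of tested remote regions with a p300 region within 500 bp, 531 of 1057 (50.2%) were called higher with RGFP966 and 2 lower, and of those without, 40 of 111 and 8. With NCoR beside them 481 of 961 rose and 1 fell, and without it 90 of 207 rose and 9 fell. The shares that rose with p300 or NCoR beside them thus lay near that of all tested remote regions. Of 35 regions with none of the 8 factors, 3 rose and 8 fell, with a median log2 fold change of −0.48. These counts describe regions of the same libraries and were not tested against each other. Of the 10 regions that fell, 70.0% were annotated as repeats.

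The ratio of remote to near H3K27ac tags was lower with KLA than with Veh and higher with RGFP966 than without it, in both libraries. The log2 ratio of remote to near tags was −2.91 and −2.92 with DMSO and Veh, −3.13 and −3.01 with DMSO and KLA, and −2.88 and −2.84 with RGFP966 and KLA. With satellites left out the values were −3.003 and −3.02, −3.24 and −3.22, and −2.92 and −2.92. The difference of KLA from Veh was −0.15 (−0.22 without satellites) and that of RGFP966 from DMSO, both with KLA, 0.21 (0.31 without satellites). In each case the groups did not overlap and the exact p was 0.333, the smallest these libraries allow. For regions over 200 kb away the differences were 0.03 and 0.0049 with all regions, and −0.08 and 0.20 with satellites left out, so that these 2 results depend on the distance limit and the repeats.

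**Figure D4:**
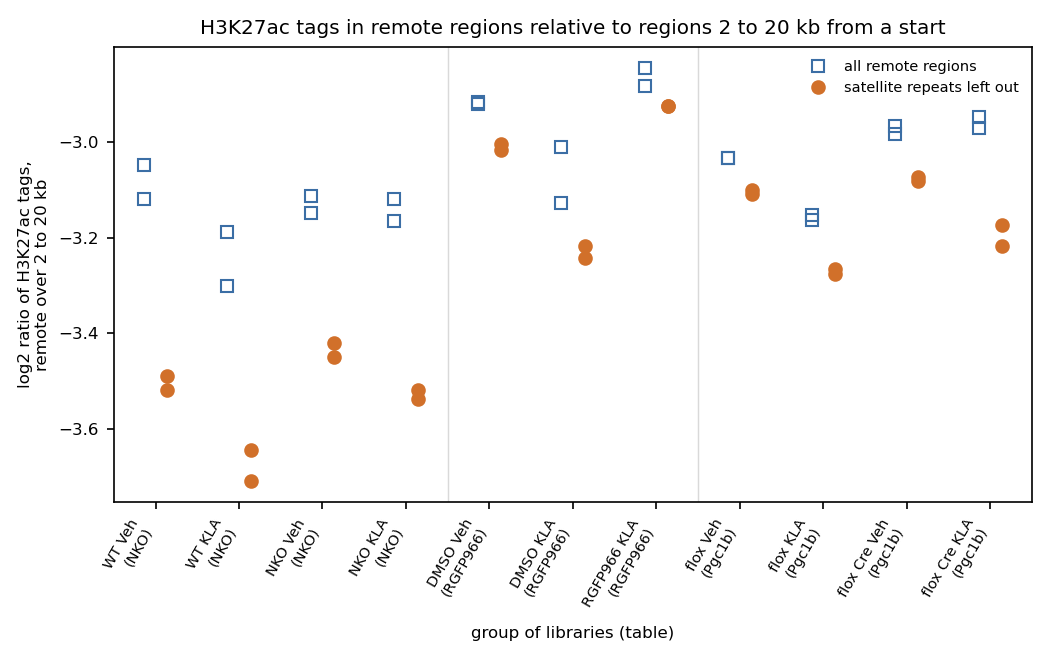
Log2 ratio of H3K27ac tags in remote regions over those in regions 2 to 20 kb from a TSS (vertical axis) for each library of each group (horizontal axis), with open squares for all regions and filled circles with satellite repeats left out. With satellites left out the RGFP966 libraries (−2.92) lie above the DMSO and KLA libraries (−3.24 and −3.22), and the squares and circles lie farthest apart in the WT and NKO table.

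Loss of NCoR was tested in the table with the fewest tags per remote region. Its remote regions had a median width of 272 bp, against 1000 bp in the RGFP966 and Pgc1b experiments. Tags per region are therefore not alike in scale between these experiments. Only 500 of 909 remote regions passed the filter on low counts, and the remote median of a library was 4.402 to 6.64 tags per 10 M. In NCoR flox/flox cells (WT) 28 regions were called higher with KLA and 32 lower, against backgrounds of 6.49% and 3.72% of regions (TMM, shift −0.14: 22 and 42). Without Veh replicate 1 or 2 the calls were 33 or 28. In NKO cells 15 (3%) were higher and 66 (13.2%) lower, against backgrounds of 2.75% and 7.96% (TMM, shift 0.20: 23 and 45), and without NKO Veh replicate 1 there were 51 calls and without NKO KLA replicate 1 or 2 there were 49 or 44. The Dock1 region was the lowest-p loss in both genotypes, from 53.6 and 52.5 to 4.402 and 6.89 tags per 10 M in WT (log2 −3.22 ± 0.39, adjusted p = 2.44e-08) and from 75.2 and 79.5 to 9.03 and 6.25 in NKO (log2 −3.30 ± 0.36, adjusted p = 5.12e-09). The 2 falls differed by −0.08 ± 0.62, which does not show that they were alike. Near Fndc3a the mark rose with KLA in WT from 1.26 and 6.62 to 63.5 and 48.9 (log2 3.73 ± 0.46, adjusted p = 3.31e-08), and near Actl7b in NKO from 48.7 and 54.0 to 118 and 105 (log2 1.12 ± 0.22, adjusted p = 0.000244).

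Direct contrasts of NKO with WT called few remote regions. With Veh 6 were higher in NKO and none lower (90 at an unadjusted p under 0.05, backgrounds 0.973% and 0.027%), but under TMM (shift −0.30) none was called, nor without WT Veh replicate 1 or 2, and without NKO Veh replicate 1 there was 1. Near Mir6390 the mark was 14.5 and 14.8 in WT and 40.6 and 51.7 in NKO (log2 1.66 ± 0.35, adjusted p = 0.00551, and 0.0651 under TMM). With KLA 5 were higher in NKO and none lower (61 at an unadjusted p under 0.05, backgrounds 0.4% and 0.389%), also 5 and none under TMM, and without WT KLA replicate 1 or 2 there were 1 or 2 and without NKO KLA replicate 1 or 2 there were 3 or 2. The lowest p was near Plk2, a kinase gene (chr13:110560530-110560893), with 8.80 and 11.03 in WT and 36.6 and 38.2 in NKO (log2 1.91 ± 0.39, adjusted p = 0.00462). The KLA response differed between genotypes at 1 region (none higher and 1 lower in NKO, 60 at an unadjusted p under 0.05, backgrounds 0.027% and 0.67%), 109 kb from Jun, an AP-1 gene, inside the antisense gene Junos. It held 12.0 and 16.3 (WT, Veh), 30.8 and 40.7 (WT, KLA), 53.1 and 38.9 (NKO, Veh) and 23.4 and 22.9 (NKO, KLA), so that it was higher with KLA in WT and lower in NKO. The interaction was −2.30 ± 0.50 (adjusted p = 0.0144), and under TMM it missed the threshold (0.107). Ratios of remote to near tags depended on the satellites: NKO differed from WT by −0.05 with Veh (0.07 without satellites) and by 0.10 with KLA (0.15), KLA from Veh by −0.16 in WT (−0.17) and by −0.01 in NKO (−0.09), and the genotypes differed in the KLA response by 0.15 (0.08).

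In the Pgc1b experiment 1171 of 1557 remote regions passed the filter, and KLA gave the same direction as in the DMSO libraries. In PGC1b flox/flox cells 431 (36.8%) were called lower and 82 (7.003%) higher, against backgrounds of 25.6% and 5.22% and near shares of 29.4% and 6.51%, and with LysMCre 523 (44.7%) lower and 58 (4.95%) higher, against 32.5% and 4.18% and near shares of 39.1% and 4.76%. Under TMM these were 255 and 123 in flox (shift 0.43) and 271 and 131 in Cre (shift 0.61). The Zfp572 region fell in both, from 482 and 524 to 98.0 and 85.6 tags per 10 M in flox (log2 −2.45 ± 0.11, adjusted p = 3.44e-96) and from 488 and 459.6 to 39.7 and 38.4 in Cre (log2 −3.60 ± 0.13, adjusted p = 1.02e-134). The Maf region rose in both, from 51.1 and 61.7 to 371 and 372 in flox (log2 2.73 ± 0.14, adjusted p = 1.49e-71) and from 59.2 and 30.5 to 169.7 and 206 in Cre (log2 2.06 ± 0.16, adjusted p = 1.38e-34). These 2 regions were also the lowest-p loss and gain in both genotypes. The responses differed by −1.15 ± 0.19 at Zfp572 (adjusted p = 5.74e-08, a call) and by −0.67 ± 0.23 at Maf (adjusted p = 0.0218, under 2-fold and not a call).

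Cre and flox cells were then compared directly. With Veh 1 remote region was called higher in Cre and 1 lower (146 at an unadjusted p under 0.05, backgrounds 0.107% and 0.29%), with 1 and none under TMM (shift 0.21), and without flox Veh replicate 1 or 2 there were 5 or 1 and without Cre Veh replicate 2 there was 1. The one that was higher lay near Vmn1r238 in an LTR element (6.73 and 4.85 tags per 10 M in flox, 16.8 and 22.6 in Cre, log2 1.73 ± 0.51, adjusted p = 0.00949), and the one that was lower near Gm20125 (30.3 and 35.3 in flox, 19.3 and 7.96 in Cre, log2 −1.25 ± 0.42, adjusted p = 0.0277, and 0.224 under TMM). With KLA 108 (9.22%) were called lower in Cre and 14 (1.20%) higher, against backgrounds of 6.81% and 0.702% and near shares of 9.19% and 0.894%. Under TMM (shift 0.39) the direction of the split turned, with 12 lower and 41 higher, so that the direction of the class depends on the scaling. The clearest loss lay 117 kb from Gm826 (chr2:160209530-160210530) and held 269 and 291 (flox, Veh), 207 and 235 (flox, KLA), 277 and 256 (Cre, Veh) and 52.0 and 62.5 (Cre, KLA). Only the Cre libraries with KLA were low, 3.84-fold under flox with KLA (log2 −1.94 ± 0.14, adjusted p = 1.34e-37, and 4.33e-22 under TMM).

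The region near Zfp438 went the other way. H3K27ac there was 109.96 and 74.1 (flox, Veh), 13.5 and 21.7 (flox, KLA), 95.4 and 80.3 (Cre, Veh) and 41.2 and 47.5 (Cre, KLA) tags per 10 M, higher in Cre than in flox with KLA (log2 1.34 ± 0.28, adjusted p = 9.01e-06). It was also the place of the lowest-p loss of HDAC3 with KLA, and there NCoR changed by −3.65 (adjusted p = 8.58e-05) and PU.1 by −3.14 (adjusted p = 8.16e-40). The KLA response differed between flox and Cre at 78 remote regions, 71 (6.06%) lower and 7 (0.598%) higher in Cre, against backgrounds of 4.6% and 0.77% and near shares of 6.83% and 0.878% (TMM, shift 0.19: 39 and 13). In the direct contrast of Cre with flox under KLA, regions were also counted by NCoR. Among tested regions with an NCoR region within 500 bp 99 of 948 were lower in Cre with KLA and 8 higher, with a median log2 fold change of −0.39. Without one 9 of 223 were lower and 6 higher (0.05). The backgrounds of this contrast were 6.81% lower and 0.702% higher. Its median over all regions was −0.38, which TMM shifted by 0.39. The median beside NCoR thus lay near that of all regions. The ratio of remote to near tags was higher in Cre than in flox with KLA by 0.20, of which 0.08 was left without satellites, and with Veh by 0.06 (0.03). The KLA response of the ratio was −0.12 in flox (−0.17) and 0.01 in Cre (−0.12), a difference of 0.14 (0.05).

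The remote loci had 1242 different nearest genes. The 5 nearest genes with the most remote regions in the NCoR, PU.1 and p300 tables were 1700019E08Rik (118 regions), Klf4 (107), Maf (106), 1700012I11Rik (101) and Prdm1 (101), which together held 533 of the 9800 remote regions of these tables (5.44%). The first lies in a gene desert of chromosome 2, with regions 110 to 956 kb away. There p65 was called higher with KLA at 44 of 51 regions and lower at none (TMM 30 and none), and p300 at 44 of 57. Around 1700012I11Rik on chromosome 15 p65 was called higher at 30 of 31 regions and p300 at 33 of 45, with none lower, and these shares lie above the backgrounds of 57% and 42.1%.

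The Klf4 flank lost H3K27ac and PU.1 with KLA. Of 13 tested H3K27ac regions 11 were called lower in DMSO (median log2 fold change −2.15), 11 in flox (−2.17) and 11 in Cre (−2.16), and none rose, against backgrounds of 28.1%, 25.6% and 32.5% lower. Summed over 14 regions the mark held 801.5 and 827 tags per 10 M with DMSO and Veh, 308 and 270.1 with DMSO and KLA, and 666 and 581 with RGFP966 and KLA. RGFP966 thus left the sum between the other groups, and 10 of 13 regions were called higher with it (median 1.92, background 26.9%). In the Pgc1b experiment the sums were 1087 and 1055 (flox, Veh), 405 and 423 (flox, KLA), 979 and 949 (Cre, Veh) and 387 and 396 (Cre, KLA), so that flox and Cre lay close. Over 10 regions of the WT and NKO experiment they were 103 and 94.2 (WT, Veh), 67.9 and 65.5 (WT, KLA), 215 and 158 (NKO, Veh) and 96.1 and 70.8 (NKO, KLA). PU.1 summed over 31 regions went from 3024 and 3008 to 1467 and 1461, and 15 were called lower and none higher (backgrounds 21.7% and 4.53%). NCoR over 35 regions went from 2416 and 2779 to 1449.9 and 1448, with 3 called higher and 12 lower (backgrounds 23.4% and 16.7%). Sums for p65 over 20 regions were 509 and 478 with Veh and 684.5 and 819 with KLA, with 5 of 20 higher and 1 lower, against backgrounds of 57% and 5.43% (TMM 2 and 6, a change of direction).

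The Maf flank differed in both mark and factors. Summed over 17 regions H3K27ac held 1399.5 and 1332 tags per 10 M with DMSO and Veh, 2533 and 2153 with KLA and 2327 and 1914 with RGFP966 and KLA. In the Pgc1b experiment the sums were 1078 and 1088 (flox, Veh), 2354 and 2326 (flox, KLA), 1126 and 1042 (Cre, Veh) and 1275 and 1299 (Cre, KLA). The sums with KLA lay above those with Veh in both genotypes, by less in Cre, and 6 of 17 regions were called lower in Cre than in flox with KLA and none higher, against backgrounds of 6.81% and 0.702% (TMM: 1 and none). Over 9 regions of the WT and NKO experiment the sums were 112 and 96.3 (WT, Veh), 152 and 132 (WT, KLA), 116 and 138 (NKO, Veh) and 120 and 125 (NKO, KLA). Sums for p65 over 36 regions went from 866 and 951 to 3406 and 3669.7, with 26 called higher and 1 lower (backgrounds 57% and 5.43%). For p300 over 43 regions they went from 2555 and 2283 to 3805 and 3945, with 17 higher and 6 lower, shares near the backgrounds of 42.1% and 12.9%. PU.1 summed to 3619 in both Veh libraries and 3632 and 3812 with KLA. With ERKi NCoR over 35 regions held 1192 and 1195 against 3235 and 2938 with KLA, and 25 of 35 regions were called lower (background 48.6%; TMM: 2).

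Around Prdm1 p65 rose at most regions, and p300 and NCoR rose at fewer. Sums for p65 over 35 regions went from 1092 and 1210.0 to 3584 and 4002 tags per 10 M, with 25 called higher and 1 lower (backgrounds 57% and 5.43%). They went for p300 over 43 from 2651 and 2164 to 4036 and 4213, with 20 higher and 3 lower (backgrounds 42.1% and 12.9%), and for NCoR over 34 from 3172 and 4039.5 to 4840.5 and 4641, with 12 higher and 1 lower (backgrounds 23.4% and 16.7%). PU.1 summed over 24 regions held 3116 and 3219 with Veh and 2607 and 2787 with KLA, with 1 called higher and 2 lower (TMM 2 and none). H3K27ac summed over 6 regions was 2144 and 2042 with DMSO and Veh, 1197 and 1038 with KLA and 1664 and 1368 with RGFP966 and KLA, and 3 of 6 were called lower with KLA (background 28.1%). In the Pgc1b experiment the sums were 1231 and 1276 (flox, Veh), 992 and 993 (flox, KLA), 1323 and 1272 (Cre, Veh) and 685 and 690 (Cre, KLA). In the WT and NKO experiment Veh and KLA overlapped over 5 regions. The sums were 176 and 174 (WT, Veh), 159 and 207 (WT, KLA), 243 and 169 (NKO, Veh) and 183 and 195 (NKO, KLA). At Day4 p300 over 17 regions went from 196 and 170.3 to 1437.5 and 1357, and 16 of 17 were called higher (TMM 6). The Day4 background of 62.2% applies to that count.

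**Figure D5:**
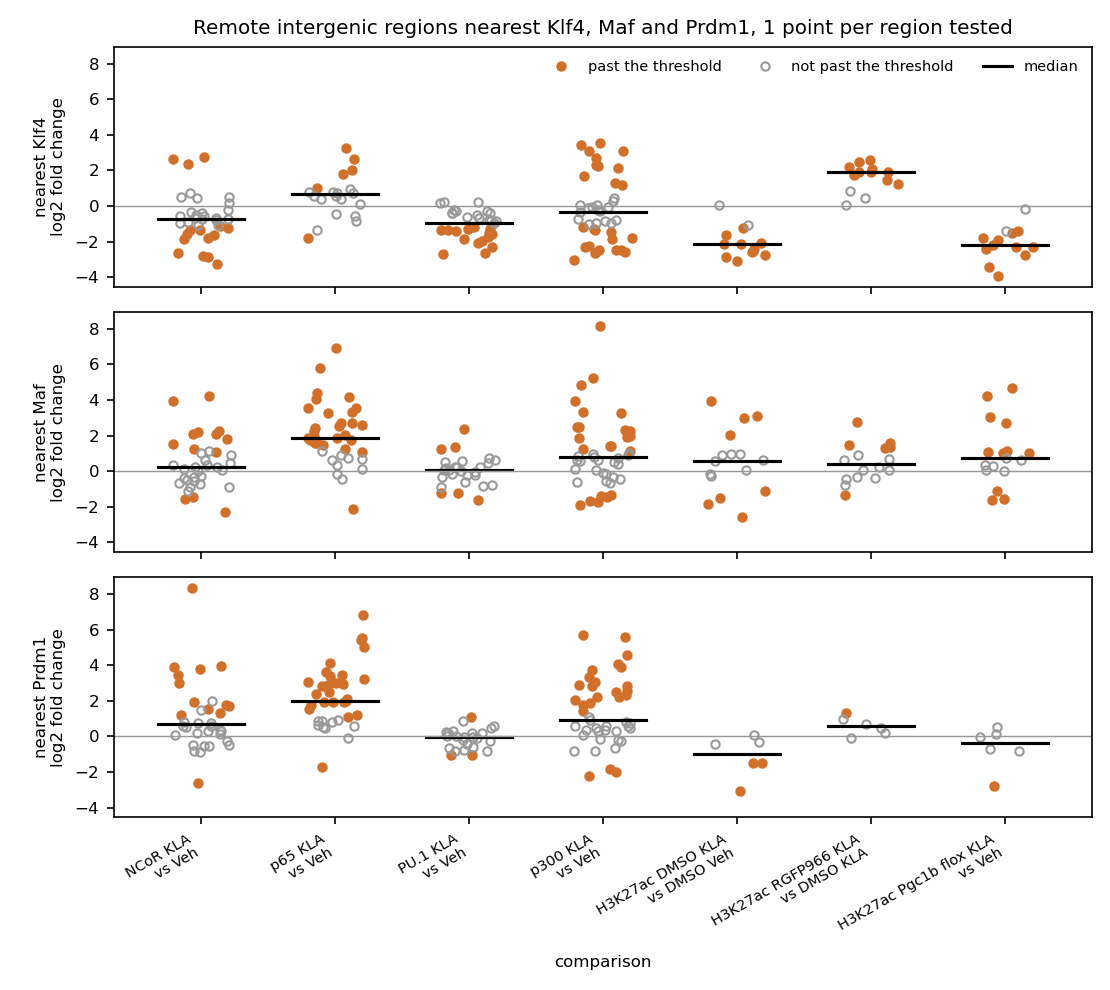
Log2 fold change (vertical axis) of each remote region tested nearest Klf4, Maf or Prdm1 (rows) in the comparisons named on the horizontal axis, with filled points for regions past the threshold, open points for the others and bars for medians. For Klf4 the H3K27ac points with KLA lie mostly below 0 (median −2.15 with DMSO) and those with RGFP966 above 0 (median 1.92).

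Over a list of 25 lineage and AP-1 genes, 9 had remote regions, at 206 loci: Maf, Klf4, Zeb2, Jun, Klf6, Runx1, Egr2, Mitf and Tfec. With KLA p65 was called higher at 76 of 118 such regions and lower at 5 (median log2 fold change 1.55), p300 higher at 70 of 172 and lower at 27 (0.71; TMM 56 and 49), NCoR higher at 33 of 131 and lower at 32 (−0.23), HDAC3 at 26 and 21 of 109 and PU.1 at 5 and 24 of 112 (−0.44). H3K27ac in DMSO was called higher at 4 of 45 and lower at 25, and with RGFP966 higher at 23 and lower at 1. The medians over all regions were 1.46 for p65, 0.65 for p300, 0.10 for NCoR and −0.41 for PU.1, and those over remote regions 2.18, 1.36, 0.28 and −0.55. The medians for p65, p300 and NCoR around these genes thus lay below those of remote regions, and for PU.1 above. The backgrounds for higher and lower calls were those given above, 57% and 5.43% for p65, 42.1% and 12.9% for p300, 23.4% and 16.7% for NCoR, 27.5% and 11.3% for HDAC3, and 4.53% and 21.7% for PU.1, and for H3K27ac 28.1% lower in DMSO and 26.9% higher with RGFP966. Runx1, a hematopoietic factor gene, had 13 of 14 p65 regions called higher and none lower (TMM 5 and 1), and Zeb2 16 of 23 higher and 2 lower (TMM 10 and 2).

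The letters under remote regions differed from those under promoters and from near regions by less. In the p300 table the AP-1 letters were found in 28.5% of remote, 23.6% of near and 12.51% of promoter regions (within 2 kb), and the CTCF letters in 1.29%, 2.18% and 8.24%. At Day4 44.7% of remote and 40.7% of near p300 regions held AP-1 letters. In the PU.1 table, 20.9% of remote and 18.6% of near regions held PU.1 letters, and in the NCoR table, 15.7% and 13.1% held IRF letters. The median GC content of remote regions was 43.0% in the p300 table, against 46.0% at near and 55.0% at promoter regions. Among remote regions the letters differed with the direction of change, and so did GC content, for which the shares were not adjusted. Median GC in regions called higher and lower was 41.0% and 47.0% for NCoR, 42.0% and 46.0% for p300 and 42.0% and 47.5% for p65. NCoR regions called higher with KLA held IRF letters in 21.6% and PU.1 letters in 7.23%, those called lower in 10.0% and 18.3%, and those not called in 14.4% and 13.8%. Regions of p300 called higher held AP-1 letters in 32.4% and PU.1 letters in 6.21%, those called lower in 10.7% and 20.3%, and those not called in 27.6% and 15.5%. NF-kB letters were in 5.06% of p65 regions called higher, in none of the 88 called lower and in 1.15% of those not called. At Day4 48.4% of p300 regions called higher and 32.8% of those not called held AP-1 letters. A match describes the sequence and is not evidence that a factor binds there.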

How the data were processed

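The deposited tables hold raw tag counts per region and library. The authors aligned ChIP-seq reads to mm10 with Bowtie2, called peaks with HOMER, kept those reproducible between replicates by IDR, merged them over conditions and counted tags with annotatePeaks.pl without adjustment, and they used DESeq2 for their own comparisons. Tool versions are not given in the sources used here. H3K27ac was counted at open chromatin sites. No column was left unused (0 of the tag columns), 70 libraries in 35 groups entered, and 30 of 100 samples (inputs) were not analysed here. Replicates were 2 per group, and every pair of replicates differed by more than counting error (chi-square per degree of freedom 1.31 to 4.05 over regions with at least 20 tags in a pair).

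Regions were classed by the Annotation and Distance to TSS columns. Library totals from the file headers served as library sizes. Counts of all regions with at least 4 tags in a library (16 for H3K27ac) were fitted with edgeR 4.0.16 in R 4.3.3 (two-sided quasi-likelihood test, Benjamini-Hochberg adjustment over all regions of the fit). A call needed an adjusted p under 0.05 and over 2-fold. Adjusted p-values in the report are from this test. Alternatives were TMM, DESeq2 1.42.0, no filter, a replicate block, leaving out each library, near regions restricted to Intergenic, other distance limits and, added after seeing the data, leaving out satellite repeats. Loci joined remote regions with centres within 500 bp. Floors are 3 tags over a group, and 95% intervals of pooled ratios are exact. Sequences came from GRCm38 (RefSeq) with pysam 0.24.0 (1 of those named is not reported here), and figures from matplotlib 3.10.9.

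Named were, in each comparison and direction, the called remote region of lowest p, in each table the remote region with the most tags, up to 5 loci present in the most tables, the 5 nearest genes with the most remote regions in the NCoR, PU.1 and p300 tables, and 2 fixed gene lists. The regions, lists and tests were chosen with earlier results of these data known. The fitting was tested on simulated data.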

Additional observations from a re-analysis of the deposited data

Results flagged for a closer look

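Tests of whether 2 genotypes differed in their response to KLA singled out the following results. Between NKO and WT the H3K27ac response differed at 1 remote region, near Jun, where the log2 difference of responses was −2.30 ± 0.50 (edgeR adjusted p = 0.0144). The mark was higher with KLA than with Veh in both WT libraries and lower in both NKO libraries, and the call held under 4 of 12 settings. Between Cre and flox the response differed at 78 remote regions. Near Zfp438, a zinc finger gene, the difference was 1.41 ± 0.34 (adjusted p = 0.000505), and near Gm826 it was −1.88 ± 0.18 (adjusted p = 1.35e-21), and both calls held under 12 of 12 settings.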

How the results depend on the processing

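With 2 libraries a group, the counts of calls were sensitive to scaling, and low counts per region limited the H3K27ac tables, where remote medians were low. Where a library was left out, the lone library of its group was assumed to vary like the others. Of the 15 strongest regions of a table, 3 changed direction under some setting and none of these was called. The 45 regions named as the gain or loss of lowest p kept their direction under every setting, missed the threshold in 9 of 180 other settings and in 29 of 192 without a library, and the cause of the changes below was not tested. Counts moved by over 1.5 times as follows. TMM gave 1520 for p65, 602 for Fosl2, 264 for NCoR with ERKi, 0 for ERK1 at Day4, 162 for p300 at Day4, 0 for NKO against WT with Veh, 0 for the NKO interaction, 1 for Cre against flox with Veh and 53 for Cre against flox with KLA. DESeq2 gave 1460 for p65, 653 for Fosl2, 42 for PGC1b with ERKi, 347 for NCoR with ERKi, 0 for ERK1 at Day4, 51 for p300 at Day4, 47 for H3K27ac in NKO, 0 for NKO against WT with Veh, 0 for the NKO interaction, 360 for RGFP966, 374 for Cre, 0 for Cre against flox with Veh, 40 for Cre against flox with KLA and 37 for the Cre interaction. Without the filter the count was 2 for the NKO interaction and 4 for Cre against flox with Veh. Libraries of the same replicate number deviated together nowhere (31 correlations from −0.027 to 0.026). These correlations include counting error and cannot tell whether such libraries share an animal or a culture. The replicate block changed the count to 96 for Fosl2 and 8 for PGC1b with ERKi and kept 23 of 25 within 1.5 times. Without a library the counts ran from 588 to 1555 for NCoR, 537 to 1327 for HDAC3, 1128 to 2446 for p65, 0 to 844 for Fosl2, 313 to 941 for PGC1b, 54 to 212 for ERK1, 305 to 471 for PGC1b in DMSO, 0 to 3 for PGC1b with ERKi, 852 to 1565 for NCoR with ERKi, 0 to 51 for ERK1 at Day4, 235 to 1062 for p300 at Day4, 28 to 46 for H3K27ac in WT, 44 to 59 for H3K27ac in NKO, 0 to 7 for NKO against WT with Veh, 1 to 3 for NKO against WT with KLA, 0 to 5 for the NKO interaction and 1 to 5 for Cre against flox with Veh.

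For the difference in the log2 ratio of remote to near tags, taking only Intergenic near regions gave 0.34 for p65, 0.017 for Fosl2, 0.21 for p300, −0.11 for H3K27ac in WT, 0.030 for H3K27ac in NKO, −0.081 for flox and 0.097 for the Cre interaction. With remote regions over 200 kb it was 0.085 for NCoR, 0.60 for p65, 0.22 for Fosl2, 0.038 for PGC1b, −0.0047 for ERK1, 0.35 for p300, 0.096 for PGC1b in DMSO, −0.072 for ERK1 at Day4, −0.054 for H3K27ac in WT, 0.17 for H3K27ac in NKO, −0.19 for NKO against WT with Veh, 0.034 for NKO against WT with KLA, 0.22 for the NKO interaction, 0.034 for H3K27ac in DMSO, 0.0049 for RGFP966, 0.065 for flox, 0.28 for Cre, 0.11 for Cre against flox with Veh, 0.33 for Cre against flox with KLA and 0.21 for the Cre interaction. With satellites left out (added after seeing the data, as is the next) it was −0.093 for H3K27ac in NKO, 0.069 for NKO against WT with Veh, 0.15 for NKO against WT with KLA, 0.080 for the NKO interaction, −0.22 for H3K27ac in DMSO, 0.31 for RGFP966, −0.17 for flox, −0.12 for Cre, 0.076 for Cre against flox with KLA and 0.049 for the Cre interaction, and with both 0.085 for NCoR, 0.60 for p65, 0.22 for Fosl2, 0.037 for PGC1b, −0.0047 for ERK1, 0.35 for p300, 0.096 for PGC1b in DMSO, −0.073 for ERK1 at Day4, 0.0074 for H3K27ac in WT, 0.082 for H3K27ac in NKO, 0.018 for NKO against WT with Veh, 0.074 for the NKO interaction, −0.080 for H3K27ac in DMSO, −0.0028 for flox, 0.088 for Cre against flox with KLA and 0.043 for the Cre interaction. Without a library it ran from −0.046 to 0.046 for PGC1b, 0.23 to 0.30 for p300, −0.058 to 0.019 for ERK1 at Day4, −0.22 to −0.10 for H3K27ac in WT, −0.082 to −0.010 for NKO against WT with Veh, 0.045 to 0.16 for NKO against WT with KLA, 0.092 to 0.20 for the NKO interaction, −0.21 to −0.093 for H3K27ac in DMSO and 0.15 to 0.27 for RGFP966. The share of remote regions was 11.3% with a limit of 50 kb and 1.80% with 200 kb.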
